A study of Mus musculus with 12 samples.

Results

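The genes described here encode the inflammasomes and the machinery of pyroptosis, the lytic form of cell death that inflammasomes trigger in macrophages. There are 10 of them, listed by symbol with earlier results of these data known: the sensors Nlrp3, Nlrc4, Nlrp1b and Mefv, the adaptor Pycard, the kinase Nek7, the inflammatory caspases Casp1 and Casp4, and the gasdermins Gsdmd and Gsdme. All 10 are among the 22243 genes of the deposited table, in which they have 14 transcripts. RNA was sequenced from bone marrow-derived macrophages (BM-Mɸs) of C57Bl/6 mice that had been M1 activated, that is, primed with interferon-γ (IFN-γ, 100 U/mL for 16 h) and then exposed to lipopolysaccharide (LPS, 100 ng/mL for 6 h). The 2 groups were ErbB4myeKO, which carry LysMCre with the LoxP-flanked ErbB4 allele, and their ErbB4FF littermates, which carry the LoxP-flanked allele as controls. There was 1 mouse of each genotype from each of 6 litters, giving 12 libraries, and all of them were M1 activated, so the values describe activated cells and hold no resting comparison. The batch letter on the labels goes with the litter number, so litter and batch cannot be told apart.

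An inflammasome forms in steps. Sensors detect a danger signal: NLRP3 responds to loss of ion balance with the help of the kinase NEK7, NLRC4 to bacterial flagellin and secretion proteins bound by NAIPs, NLRP1B to proteases and to inhibition of DPP8 and DPP9, and pyrin (the product of Mefv) to bacterial inactivation of RhoA. Most sensors recruit ASC (the product of Pycard), which gathers caspase-1, and caspase-1 matures IL-1β and IL-18 and cleaves gasdermin D, whose released fragment forms pores in the plasma membrane; mouse caspase-11, the product of Casp4, binds cytosolic LPS and cleaves gasdermin D directly. In macrophages NF-κB signaling induces Nlrp3, which is called priming, and interferons induce Casp4.

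LysMCre is inserted in Lyz2 and acts in myeloid cells generally, and the labels give neither the sex nor the age of the mice. The cells had been differentiated in conditioned medium that holds M-CSF. The genotype labels were checked against 2 genes. In TPM, transcript abundance scaled for transcript length and for library size, Erbb4 was at 0.583 ± 0.242 TPM (SD, n = 6) in libraries labelled ErbB4myeKO and 0.450 ± 0.132 TPM (SD, n = 6) in those labelled ErbB4FF, and it was lower in the former in 2 of 6 litters; a whole-transcript value near this low level does not show whether the flanked exon was lost. Lyz2 was lower in the ErbB4myeKO library in 5 of 6 litters, by log2 ratios of -1.20 to -0.81, but in litter 6 it was higher (7997 against 2964 TPM, log2 ratio 1.43). In litter 6 the Lyz2 level goes against the labels, so libraries are named here by their label, and each member's mean is given without litter 6. Litter 5 stood apart from the rest, since the median correlation of its libraries with those of other litters was 0.878 to 0.881 and that of the others 0.893 to 0.946. Litter 3 had the fewest genes above 0 TPM, at 10214 and 10910 against 11645 to 12985 in the others, the lowest correlation of log2 levels between littermates (0.931 against 0.949 to 0.971), and in its ErbB4myeKO library the highest mitochondrial share (5.90% against at most 4.99%). For deviations from group means the lowest correlation between littermates was that of litter 2 (0.273), and litter 3 was at 0.471. The summed level of 8 macrophage markers was 8417 to 12521 TPM in libraries labelled ErbB4myeKO and 7179 to 15964 TPM in those labelled ErbB4FF, and Lyz2 was 37.0 to 83.0% of it. Of the 8, Fcgr1, the gene of a high-affinity Fc receptor, was lower in the ErbB4myeKO library in 6 of 6 litters (114 against 212 TPM on average) and Mertk in 0 of 6 (122 against 113 TPM), with the other 6 between, among them Adgre1 at 881 and 873 TPM. The part of these differences in the results was not tested. Of the 10 neutrophil markers, S100a8 and S100a9 held most of a sum of 39.7 to 371 TPM (ErbB4myeKO) and 40.1 to 185 TPM (ErbB4FF). Ly6g and Retnlg were at no more than 0.448 TPM and at 0, whereas the granule genes Ngp and Camp reached 18.4 and 10.5 TPM, both in litter 5. Lymphocyte and erythroid markers summed to at most 2.47 and 0.696 TPM, and 6 dendritic cell markers to 30.4 to 122 TPM.

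The promoter sequences of 4 start sites are shown for context, and no test used them. They were chosen because Nlrp3 was measured through 2 transcripts with separate starts, and Casp1 and Casp4, which lie side by side, had ratios of the same sign in every litter. Promoters were taken from RefSeq (build GRCm38.p6) for 9 of the 10 genes, and that of Gsdmd was not analysed here. The 250 bases before each start site are given 5′ to 3′, with matches to the NF-κB consensus (κB) in capitals.
Nlrp3, upstream start (chr11:59541319-59541568, + strand): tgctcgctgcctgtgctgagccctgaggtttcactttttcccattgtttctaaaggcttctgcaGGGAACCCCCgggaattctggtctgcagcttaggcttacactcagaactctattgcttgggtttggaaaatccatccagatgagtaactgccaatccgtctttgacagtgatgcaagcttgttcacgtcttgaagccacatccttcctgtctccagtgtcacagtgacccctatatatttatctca
Nlrp3, downstream start (chr11:59542436-59542685, + strand): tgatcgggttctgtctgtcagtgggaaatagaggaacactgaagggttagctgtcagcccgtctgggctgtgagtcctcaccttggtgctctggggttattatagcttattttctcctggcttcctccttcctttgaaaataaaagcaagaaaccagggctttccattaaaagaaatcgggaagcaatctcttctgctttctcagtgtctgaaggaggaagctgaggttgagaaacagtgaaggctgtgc
Casp1 (chr9:5298267-5298516, + strand): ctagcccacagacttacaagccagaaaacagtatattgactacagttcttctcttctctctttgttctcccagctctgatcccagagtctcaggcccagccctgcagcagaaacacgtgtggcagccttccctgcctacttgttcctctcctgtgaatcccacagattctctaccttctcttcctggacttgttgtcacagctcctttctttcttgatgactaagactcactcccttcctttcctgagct
Casp4 (chr9:5308599-5308848, + strand): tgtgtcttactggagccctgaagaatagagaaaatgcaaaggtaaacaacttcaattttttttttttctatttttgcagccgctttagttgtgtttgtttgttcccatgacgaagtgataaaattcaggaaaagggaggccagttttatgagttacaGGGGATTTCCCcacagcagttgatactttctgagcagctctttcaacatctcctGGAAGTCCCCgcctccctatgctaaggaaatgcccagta
The upstream Nlrp3 promoter held 1 κB match, GGGAACCCCC, at position -186 from the start site, and the downstream one held none. The Casp4 promoter held 3, of which those at -93 and -92 overlap in the longer run of capitals and the other is at -39, and the Casp1 promoter held none, so these neighbours differ in this respect. The promoters of the other 6 members analysed held none either. Matches were sought on both strands within 300 bases (250 before and 50 after the start), where the κB consensus was in 8.46% of 32851 promoters. TTCNNNGAA (GAS), the core of the interferon-stimulated response element and TGANTCA (AP-1) were in 8.30%, 3.44% and 7.81% of promoters and in none of the members' promoters. The κB consensus was chosen after promoters had been seen, so the members' matches cannot be weighed against its share of all promoters. A match is a string of letters and does not show that a factor binds.

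The levels of the members, in TPM (which is per transcript length, so genes can be set side by side), spanned a wide range in these activated cells. Nlrp3 was the highest at 313 ± 119 TPM (SD, n = 12), ranked 348 among 22243 genes, followed by Casp1 at 307 TPM, which it exceeded in 6 of 12 libraries, so the order of these 2 is not set. Casp4 followed at 259 TPM, and Casp1 was above it in 10 of 12 libraries. Mefv was at 119 TPM, below Casp4 in all 12, and Gsdmd at 95.5 TPM, below Mefv in 9 of 12. The adaptor and the other sensors were far lower. Pycard was at 15.8 TPM, below Gsdmd in 12 of 12 libraries, and Nlrc4 was at 12.5 TPM, with Pycard above it in 6 of 12. Nek7 was at 10.1 TPM, below Nlrc4 in 8 of 12. Gsdme (0.899 TPM) and Nlrp1b (0.286 TPM) lay at the bottom, with Gsdme below Nek7 in 12 of 12 libraries and above Nlrp1b in 11 of 12. Pycard is counted on a transcript of 3800 bases, 12.8% of whose 31-base words also occur in other genes, so its level depends on that annotation.

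**Figure D1:**
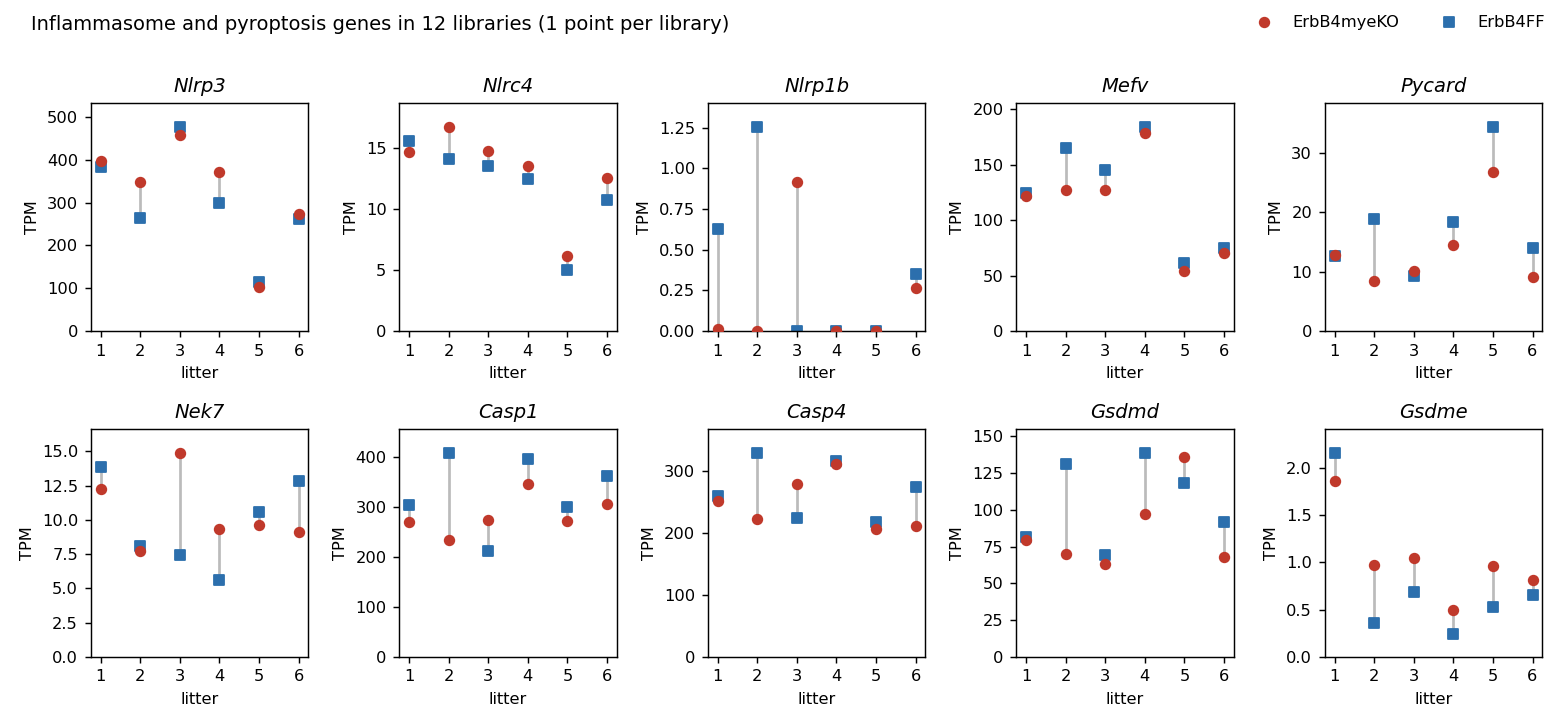
TPM of the 10 inflammasome and pyroptosis genes in each library, in a panel per gene with litter 1 to 6 on the horizontal axis and a point for each genotype label. The groups overlap in every panel, both libraries of litter 5 sit lowest for Nlrp3 and Nlrc4 and highest for Pycard, and Mefv is lowest in litters 5 and 6.

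The genotype labels were compared within litters to ask whether these genes differ in ErbB4myeKO macrophages. No group with LysMCre and an intact ErbB4 was sequenced. Loss of ErbB4 therefore cannot be told apart from the Cre insertion in Lyz2. No member passed the threshold (limma, Benjamini-Hochberg adjusted p under 0.05), where 0.0% of the 8780 genes tested passed it. Of the 10 members, 8 reached a mean of 1 TPM and were tested; 3 of these were higher and 5 lower in libraries labelled ErbB4myeKO, with a median log2 fold change of -0.14 beside -0.00068 over all genes tested. At an unadjusted p under 0.05 the count was 1 of 8, Mefv, against 8.21% of all genes. Likewise 1 of 8, again Mefv, had the same direction in all 6 litters, against 4.82% of all genes; with the labels of litter 6 exchanged these were 0 of 8 and 3.13%. Both shares are those of a single gene. In bulk RNA, fewer cells of a type and less RNA per cell cannot be told apart.

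Among the sensors, Nlrp3, the receptor of the priming-dependent inflammasome, ran from 104 through a median of 360 to 459 TPM in libraries labelled ErbB4myeKO. In those labelled ErbB4FF it ran from 115 through 282 to 476 TPM. The groups overlap, and the lowest value of each is that of litter 5. The mean log2 ratio within litters was 0.11 ± 0.21 (SD, n = 6), higher in 4 of 6 litters (two-sided exact permutation over 64 swaps within litters, p = 0.312; limma SE 0.08, adjusted p = 0.702). The 95% interval was -0.08 to 0.30, and the mean was 0.05 without litter 2, 0.16 without litter 5, 0.11 without litter 6 and 0.06 with its highest transcript alone.

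Nlrp3 lies on chromosome 11 (59541568-59566956, + strand, GRCm38, GENCODE M21) and has 2 transcripts in the table, which start at 59541568 and 59542686 and share the same coding start. ENSMUST00000079476 starts upstream, and ENSMUST00000101148 starts downstream within its first intron. The downstream transcript held between 11.1% and 50.7% of the gene's TPM in libraries labelled ErbB4myeKO and between 2.03% and 50.2% in those labelled ErbB4FF, and both lowest shares were in litter 5. Its share was higher in the ErbB4myeKO library in litters 3, 4 and 5 and lower in litters 1, 2 and 6, so the genotypes did not separate. Only 35 and 123 of the 31-base words of these transcripts (0.897% and 3.08%) are not in the other, so the split rests on few reads, whereas the sum does not depend on it.

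**Figure D2:**
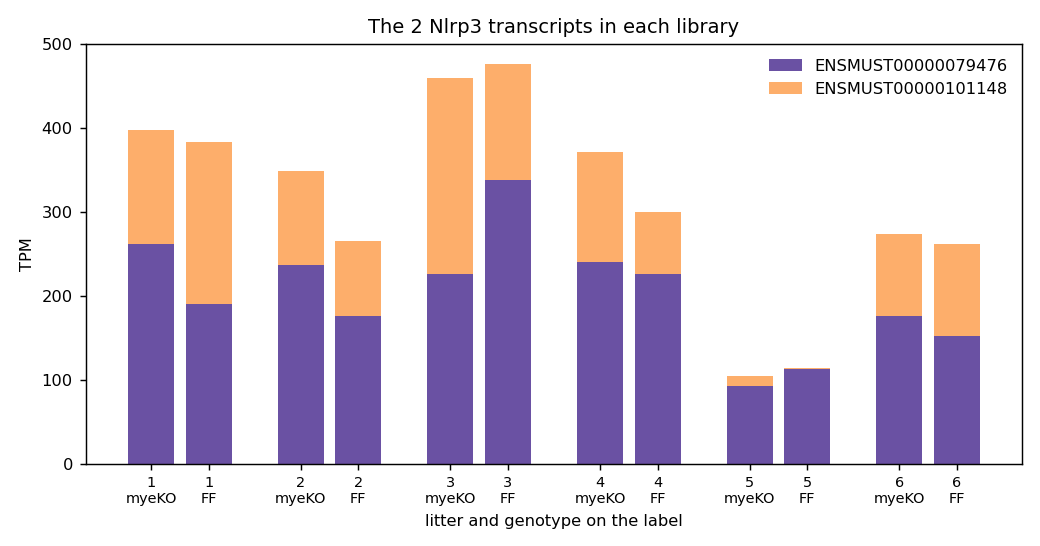
TPM of the 2 Nlrp3 transcripts in each of the 12 libraries by litter and genotype label. The downstream transcript is the smaller part of the gene in 10 of 12 libraries, and it holds 11.1% and 2.03% of it in the libraries of litter 5.

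Nlrc4 (chromosome 17, 74425438-74459142, - strand), which acts downstream of the NAIP receptors, ran from 6.16 through 14.1 to 16.7 TPM in libraries labelled ErbB4myeKO and from 5.01 through 13.0 to 15.6 TPM in the others. The groups overlap, and in both the lowest library was that of litter 5. Within litters the ratio averaged 0.15 ± 0.13 on the log2 scale (SD, n = 6), higher in 5 of 6 litters, with exact permutation p = 0.0625 and a limma adjusted p = 0.629 (SE 0.08). Both libraries of litter 5 were below all 10 others, and the mean was 0.12 without that litter, 0.13 without litter 6 and 0.073 (exact permutation p = 0.344) with the labels of litter 6 exchanged. A pseudogene, CT033749.1, lies within its bounds on the same strand, and 3.45% of its 31-base words occur in other genes.

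Mefv (chromosome 16, 3707218-3718097, - strand), which encodes pyrin, was the member with the same direction in 6 of 6 litters as labelled. It ran from 54.1 through 124 to 179 TPM in libraries labelled ErbB4myeKO and from 61.3 through 135 to 184 TPM in those labelled ErbB4FF. The groups overlap, and the lowest values of both are those of litters 5 and 6. Within litters it was lower in the ErbB4myeKO library in 6 of 6, by ratios of -0.37 to -0.04, with a mean log2 ratio of -0.15 ± 0.13 (SD, n = 6), a difference of -9.89%. The exact permutation p was 0.0312, the smallest that 64 swaps allow, and limma gave SE 0.06 and adjusted p = 0.603, so the difference did not pass the correction. Its direction in 6 of 6 rests on the labels of litter 6, which Lyz2 goes against: with the labels of that litter exchanged, Mefv was lower in 5 of 6, with a mean log2 ratio of -0.12 ± 0.16 (SD, n = 6; exact permutation p = 0.156). The mean was -0.16 without litter 6, -0.14 without litter 5 and -0.11 without litter 2. Neutrophils also express Mefv, and S100a8 and S100a9 summed to 140 to 354 TPM in litters 5 and 6, where Mefv was lowest, and to 35.9 to 67.9 TPM in litters 1 to 4. In litters 1 to 4 alone the mean log2 ratio was -0.16 (exact permutation p = 0.125, the smallest that 4 litters allow), and the part of neutrophils in the result was not tested.

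Nlrp1b (chromosome 11, 71153102-71230733, - strand) was listed at 0 in 5 of 12 libraries and at no more than 1.25 TPM in the rest. It was not tested at the filter of 1 TPM, and its mean log2 ratio of -0.27 ± 1.14 (SD, n = 6; exact permutation p = 0.562) rests on values near or under that level. It was -0.29 without litter 6 and 0.040 without litter 2. Without the filter its limma log2 fold change was -0.27 (SE 0.41, adjusted p = 0.842).

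The adaptor gene Pycard (chromosome 7, 127989708-127993867, - strand) ran from 8.37 through 11.4 to 26.9 TPM in libraries labelled ErbB4myeKO. In those labelled ErbB4FF it ran from 9.22 through 16.2 to 34.3 TPM. The groups overlap, and both maxima are those of litter 5. Within litters the ratio averaged -0.38 ± 0.45 on the log2 scale (SD, n = 6), lower in 4 of 6 litters, with exact permutation p = 0.125, limma SE 0.16 and adjusted p = 0.603. The interval was -0.76 to 0.00. Litter 2 had the largest ratio, -1.13, and the mean without it was -0.23, beside -0.38 without litter 5, -0.33 without litter 6 and -0.18 with the labels of litter 6 exchanged. Gm45205, on the opposite strand, overlaps 599 bases of the gene.

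Nek7, the kinase that licenses NLRP3 (chromosome 1, 138482875-138620141, - strand), ran from 7.74 through 9.48 to 14.9 TPM in libraries labelled ErbB4myeKO and from 5.61 through 9.35 to 13.9 TPM in those labelled ErbB4FF, with overlapping groups. It was higher in only 2 of 6 litters, with a mean log2 ratio of 0.13 ± 0.56 (SD, n = 6; exact permutation p = 0.594; limma SE 0.20, adjusted p = 0.844). With a Y-linked covariate beside the litter block the limma estimate was 0.21. That covariate was nearly the same in littermates, so this is no adjustment for sex. The mean log2 ratio was 0.26 without litter 6 and 0.024 without litter 4. Without litter 3, in which its ratio was 0.96, it was -0.030, so the sign of the mean rests on that litter, which had the fewest genes detected; the part of this in the result was not tested. Gm28501 is antisense to Nek7, and the counting is not stated to use strand.

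The inflammatory caspases were lower in libraries labelled ErbB4myeKO in most litters. Casp1 (chromosome 9, 5298517-5307265, + strand), the enzyme that matures IL-1β and IL-18, ran from 233 through 273 to 345 TPM in libraries labelled ErbB4myeKO. In those labelled ErbB4FF it ran from 212 through 332 to 408 TPM. The groups overlap, and litter 3 had the lowest ErbB4FF value. The mean log2 ratio was -0.20 ± 0.37 (SD, n = 6), lower in 5 of 6 litters, with exact permutation p = 0.281, limma SE 0.13 and adjusted p = 0.663. Casp4 (chromosome 9, 5308828-5336783, + strand), which encodes the cytosolic LPS sensor caspase-11, ran from 207 through 238 to 312 TPM and from 217 through 267 to 330 TPM in the same order of groups. Its mean log2 ratio was -0.13 ± 0.31 (SD, n = 6), lower in 5 of 6 litters (exact permutation p = 0.281; limma SE 0.11, adjusted p = 0.730).

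The caspases are adjacent on one strand and share no 31-base words with other genes. Their ratios had the same sign in 6 of 6 litters, at -0.81 and -0.57 in litter 2 and 0.37 and 0.32 in litter 3, and correlated at r = 0.93 over the litters. The ratios of Pycard, which lies on another chromosome, correlated at 0.91 with those of Casp1 and 0.94 with those of Casp4. They had the same sign as each caspase in 5 of 6 litters, so this likeness is not particular to the neighbours. These are descriptions over 6 ratios from the same libraries. Without litter 2 the means were -0.08 and -0.04, without litter 5 -0.21 and -0.14, without litter 6 -0.19 and -0.08, and without litter 3, the one with the fewest genes detected and the only litter where they were higher, -0.31 and -0.22. With the labels of litter 6 exchanged they were -0.12 and -0.00091.

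Gsdmd (chromosome 15, 75862327-75867408, + strand), which encodes the pore-forming target of both caspases, ran from 63.5 through 75.0 to 136 TPM in libraries labelled ErbB4myeKO. In those labelled ErbB4FF it ran from 69.5 through 105 to 139 TPM. The groups overlap. The mean log2 ratio was -0.30 ± 0.39 (SD, n = 6), lower in 5 of 6 litters, with exact permutation p = 0.156, limma SE 0.14 and adjusted p = 0.603. The ratio was -0.90 in litter 2, and the mean without that litter was -0.18. Litter 5 was the only litter where it was higher, by 0.20, and the mean without it was -0.40, beside -0.27 without litter 6 and -0.16 with the labels of litter 6 exchanged.

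Gsdme (chromosome 6, 50188888-50263862, - strand), another pore-forming gasdermin gene, was near the limit of detection, at 1.03 ± 0.456 TPM (SD, n = 6) in libraries labelled ErbB4myeKO and 0.771 ± 0.702 TPM (SD, n = 6) in those labelled ErbB4FF. It was higher in the former in 5 of 6 litters, with a mean log2 ratio of 0.35 ± 0.32 (SD, n = 6; exact permutation p = 0.0625) and of 0.39 without litter 6, and without the filter limma gave SE 0.16 and adjusted p = 0.764. The mean was 0.57 with a pseudocount of 0.1, 0.24 with a pseudocount of 1, and 0.25 ± 0.60 (SD, n = 6; exact permutation p = 0.406) with its highest transcript alone. The exponential of the authors' mean natural log was 6.72 normalized estimated counts for that transcript, ENSMUST00000170142, beside 942 for Gsdmd. Mpp6 lies over it on the opposite strand.

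**Figure D3:**
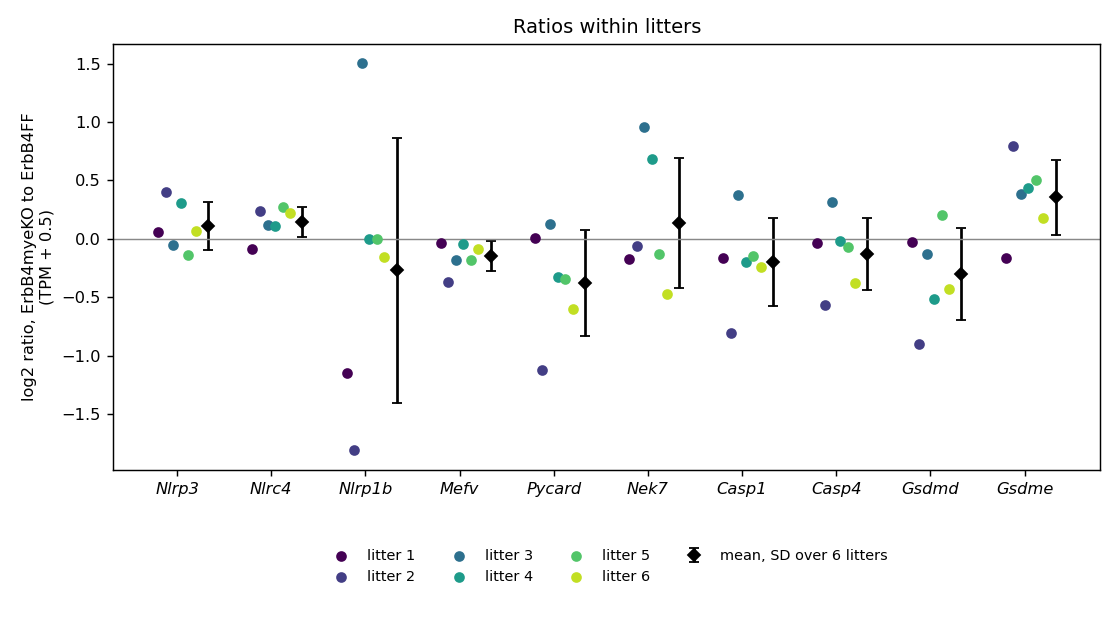
Log2 ratio of ErbB4myeKO to ErbB4FF of TPM + 0.5 within each litter for the 10 members. Mefv is below 0 in 6 of 6 litters, Casp1 and Casp4 follow each other in every litter, and Pycard, Casp1, Casp4 and Gsdmd are lowest in litter 2.

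For 3 of the 4 sensors, litter went with nearly all of the variation. On log2(TPM + 0.5), litter held 97.4% of the sum of squares of Nlrp3, 96.3% of Nlrc4 and 97.4% of Mefv, and the genotype label 0.618%, 2.24% and 1.64%. Nlrp1b, which is near 0 TPM, differed from them, with 31.1% for litter and 64.6% in neither. Over all genes tested the medians were 78.1% for litter and 2.49% for genotype. The litter share was below that median for Casp1, Casp4, Gsdmd, Nek7, Pycard and Nlrp1b. Litter held 48.7% for Casp1, 55.3% for Casp4 and 65.6% for Gsdmd, and genotype 12.9%, 7.59% and 14.1%. The share in neither was 38.4%, 37.1% and 20.3%, beside 0.976% for Mefv and a median of 16.2% over all genes tested. The SD of Casp1, Casp4 and Gsdmd over the libraries was 0.288, 0.241 and 0.417, below the median of 0.452, so their shares are of a smaller spread. Gsdme, the other gasdermin gene, had 80.5% for litter and 11.5% for genotype, and Pycard 77.5% and 10.3%. Nek7 had 51.3% for litter, 3.17% for genotype and 45.5% in neither. No test of these shares was made.

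**Figure D4:**
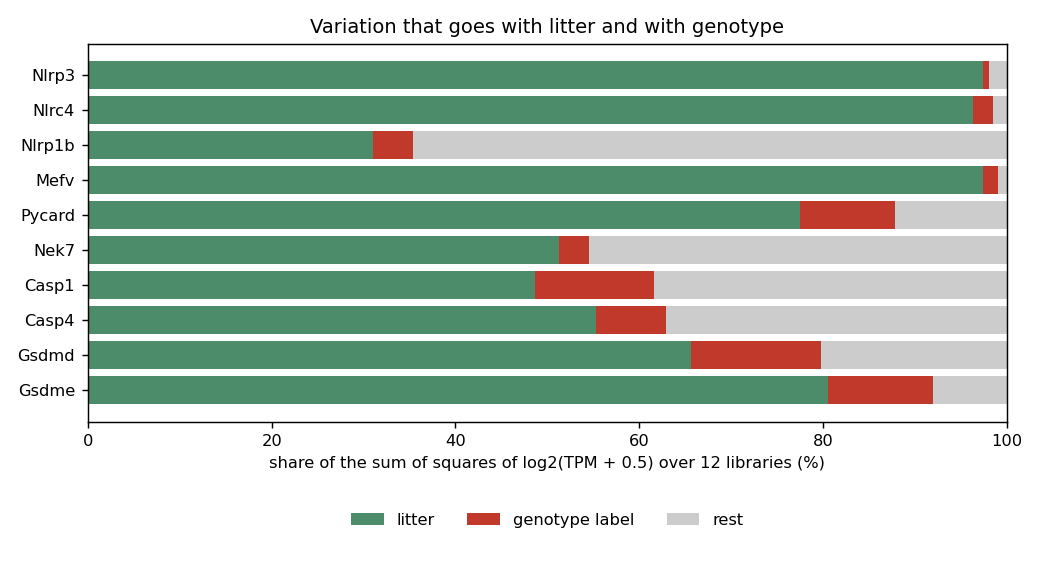
Shares of the sum of squares of log2(TPM + 0.5) over 12 libraries that went with litter, with genotype label and with neither, for the 10 members. The litter bar reaches past 96% for Nlrp3, Nlrc4 and Mefv and stays under 66% for Nlrp1b, Nek7, Casp1, Casp4 and Gsdmd.

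Litters 5 and 6 differed from the rest in several members. In litter 5 Nlrp3 was at 104 to 115 TPM against 261 to 476 in the other 10 libraries, and Nlrc4 at 5.01 to 6.16 against 10.7 to 16.7 TPM. Pycard went the other way, at 26.9 to 34.3 TPM against 8.37 to 18.9. Mefv was at 54.1 to 74.6 TPM in litters 5 and 6 and 122 to 184 TPM in litters 1 to 4. Casp1 showed none of this, at 271 to 300 TPM in litter 5 and 212 to 408 TPM in the other 10 libraries, and spanned 1.92-fold over all 12, where Nlrp3 spanned 4.58-fold and Casp4 1.59-fold. Over the 12 libraries the log2 levels of Nlrp3 correlated at 0.92 with Nlrc4 and -0.84 with Pycard, and those of Pycard at 0.87 with Gsdmd; these are descriptions in which litter 5 weighs heavily. Levels of 4 Y-linked genes set litters 5 and 6 apart from litters 1 to 4 (mean log2 -0.88 to -0.79 against 2.06 to 2.66), alike in both littermates, and the neutrophil marker sum was also highest in these litters (153 to 371 against 39.7 to 72.8 TPM). Their part in the litter differences was not tested.

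The tested genes whose log2 levels were most like Nlrp3 over the 12 libraries were Gabpa (r = 0.992), Kcna3 (0.991) and Nfkb1 (0.991), the gene of the NF-κB p105 and p50 subunit. Without litter 5 (n = 10) these were 0.974, 0.965 and 0.957. For Casp1 they were Car13 (0.972), Maf (0.936) and the interferon-induced Ifit2 (0.911). For Casp4 they were Prkx (0.938), Serinc3 (0.928) and the interferon-induced Ifi205 (0.918).

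A wider list of 49 inflammasome and pyroptosis genes, taken by role, held 47 genes in the table, of which 30 were tested. In libraries labelled ErbB4myeKO 10 were higher and 20 lower, 0 were called, and 2 had an unadjusted p under 0.05 (6.67%, beside 8.21% of all genes), with a median log2 fold change of -0.05. Of the other sensors 2 of 6 were higher, of the regulators 4 of 13, of the executioners and repair genes 1 of 7, and of the cargo 3 of 4. The other sensors and regulators named for their high level had small differences that did not pass the test. Nlrc5 was at 0.05 on the log2 scale, Naip2 at -0.09, the chaperone gene Hsp90ab1 at 0.05, and Gbp2, a guanylate-binding protein gene of cell-autonomous defence, at -0.04. Leaving out 1 litter took Hsp90ab1 to between 0.020 (without litter 6) and 0.078 (without litter 3) and Gbp2 to between -0.081 (without litter 3) and -0.027 (without litter 5), and the highest transcript alone gave -0.24 for Naip2 and 0.18 for Nlrc5.

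Chmp4b, a subunit of the ESCRT-III complex that repairs membranes opened by gasdermin pores, was at 406 against 457 TPM, a log2 ratio of -0.16 ± 0.11 (SD, n = 6), lower in 5 of 6 litters (exact permutation p = 0.0625; limma SE 0.06, adjusted p = 0.603). Ninj1, which ruptures the membrane in the last step of lysis, had a log2 fold change of 0.22 (SE 0.15, adjusted p = 0.671), and of 0.11 without litter 2 or litter 4. Among the cargo, Il1b, the cytokine that caspase-1 matures, averaged 8574 and 6928 TPM and Il1a 1397 and 914 TPM, with log2 ratios of 0.25 ± 0.75 and 0.80 ± 1.41 (SD, n = 6), and adjusted p = 0.761 and 0.643 in limma. Without litter 2 these means were 0.016 and 0.31, without litter 3 0.37 and 0.99, without litter 5 0.44 and 1.10, and without litter 6 0.21 and 0.78. Both were higher in 4 of 6 litters and most so in litter 2, at 1.43 and 3.27, the litter in which Casp1 and Gsdmd were furthest below the littermate. Il18, the other cytokine that caspase-1 matures, named after its values were seen, was lower in 5 of 6 litters and at -1.09 in litter 2, with a mean log2 ratio of -0.28 ± 0.47 (SD, n = 6; exact permutation p = 0.219; limma SE 0.16, adjusted p = 0.644) and of -0.12 without litter 2.

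**Figure D5:**
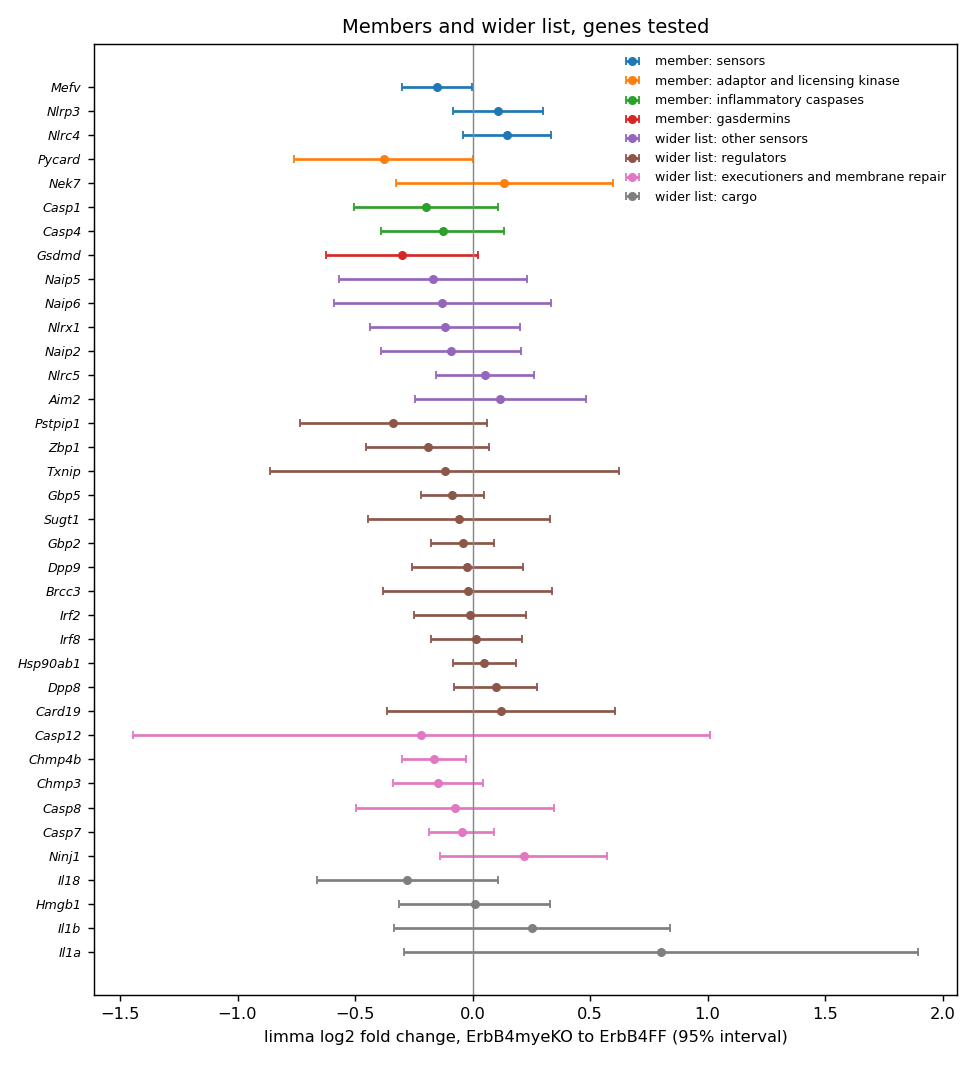
Limma log2 fold change of ErbB4myeKO to ErbB4FF with its 95% interval for the members and the tested genes of the wider list that are described here. The intervals of Mefv and Chmp4b do not cross 0, the others drawn do, and no gene passed the adjusted threshold.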

How the data were processed

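RNA-seq of M1-activated BM-Mɸs from 6 ErbB4myeKO and 6 ErbB4FF littermates was used. The authors pseudoaligned single-ended reads with kallisto and deposited TPM for principal transcripts; versions of kallisto and the transcriptome are not given in the sources used here, and the build in the submitters' processing notes is mm10. The principal transcripts hold 59.0 to 74.7% of each library's TPM. The authors also deposited a mean natural log of normalized estimated counts, used only as a guide to depth, and p-values and q-values of their own comparison, which were not used. The table gives no depth, so precision rests on the spread between litters.

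Of 29213 lines, 405 repeated a transcript and were dropped, and the TPM of 28808 transcripts were summed over 22243 genes. Genes averaging 1 TPM or more were kept, and log2(TPM + 0.5) was modelled on genotype and a litter block in limma 3.58.1 (R 4.3.3; lmFit and trended eBayes); p-values were adjusted by Benjamini-Hochberg over 8780 genes. Fold changes are on this scale, which understates those of low genes. Littermates deviated together (correlation of deviations from group means 0.273 to 0.774), and the labels pair them. Single genes were tested by two-sided exact permutation over 64 swaps within litters, in Python 3.11.15 with scipy 1.17.1. The limma step was tested on simulated data. Positions came from GENCODE M21, which holds all 28808 transcripts, and promoters from RefSeq.

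The members, the lists and the tests were chosen with earlier results of these data known. Text named all members, list genes with an unadjusted p under 0.05, the 2 highest per role, and the 3 genes most like Nlrp3, Casp1 and Casp4; 1 gene of the wider list, counted in its totals, is not reported here. The κB consensus was chosen after promoters had been seen. Alternatives were the pseudocount (0.1 and 1), the filter (none and 5 TPM), the highest transcript alone, other scaling, no trend, no block, a Y-linked covariate and each litter left out. The Y-linked covariate was nearly the same in littermates, so beside the litter block it cannot adjust for sex.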

Additional observations from a re-analysis of the deposited data

Results flagged for a closer look

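In all, 3 values were flagged, each the highest of its group of 6 and with a gap to the next library above Dixon's 95% critical share of the group's range: Nlrp1b at 0.916 TPM in the ErbB4myeKO library of litter 3, Pycard at 26.9 TPM in the ErbB4myeKO library of litter 5, and Gsdme at 2.16 TPM in the ErbB4FF library of litter 1. Chance flags about 1 in 20 groups, and 3 of 30 were flagged, counting both genotype groups and the litter ratios of each of the 10 members; no set of ratios was flagged. The Pycard littermate was also the highest of its group, at 34.3 TPM. Nlrp1b and Gsdme are low enough that few reads decide the value.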

How the results depend on the processing

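No member was called under any alternative fitted in limma. The number of all genes called was 0 to 1 with 1 litter left out (1 without litter 3, which is no member). Without the litter block, 75 genes had an unadjusted p under 0.05 in place of 721, and 0 members in place of 1; the unpaired fit changed no call. With 1 litter left out that number was 413 to 864 for all genes and 0 to 2 for members. It was 2 members with a pseudocount of 1, 0 without limma's trend and 0 in litters 1 to 4 alone, an alternative chosen after the data were seen. So was exchanging the labels of litter 6, for which ratios within litters and counts of direction were computed and no limma fit was made. It turned the sign of no member's mean ratio and took Nek7 to 0.29. Signs turned for Nek7 (-0.030 to 0.26 with 1 litter left out, -0.030 without litter 3), Naip2 (-0.18 to 0.021, without litter 2), Nlrc5 (-0.025, without litter 5, to 0.10) and Nlrp1b (-0.62 to 0.040, without litter 2). The cause was not tested. Leaving out any litter brings the smallest exact permutation p to 0.0625, which Mefv then had. The table gives no depth per library, and low genes such as Nlrp1b and Gsdme are the least certain.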
